A study of Zea mays with 6 samples.

Results

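Zm00001d020544 and Zm00001d020543 are a pair of maize genes on chromosome 7, each described in the deposited table as an S-adenosylmethionine (SAM) decarboxylase proenzyme. They are 2 of the 45953 genes of that table and were taken by their identifiers. They had been selected on their FPKM and log2 differences, which were higher in root tips of plants under negative pressure irrigation (NPI) than in root tips of plants under DI. Their values in that contrast are therefore a description, with no test. NPI is a watering method in which the soil itself pulls water in from a reservoir kept under slight suction. DI is spelled out as deficit irrigation by one label and as drip irrigation by a different one, and only the abbreviation is used here. There were 3 mRNA libraries per group, and the labels used here state neither variety nor plant age. By its title, the series concerns how NPI inhibits root growth and raises water use efficiency.

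SAM decarboxylase removes the carboxyl group of SAM and so makes the aminopropyl donor for the polyamines spermidine and spermine. The protein is made as a proenzyme that cuts itself into an active form, and the step is regarded as a control point of polyamine synthesis in plants. Putrescine, made from arginine or ornithine, receives the aminopropyl groups from spermidine and spermine synthases. In roots, polyamines are known for roles in cell division, in xylem differentiation and in responses to water deficit. SAM is also the precursor of ethylene and the methyl donor of the cell.

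Both genes lie on the minus strand. By the coordinates of the deposited table, Zm00001d020544 covers 121750712 to 121753167, a span of 2456 bases, and Zm00001d020543 covers 121726371 to 121727549, a span of 1179 bases. The gap between them is 23162 bases, with 0 other genes of the table inside it. The table gives Zm00001d020543 4 gene ontology terms, for SAM decarboxylase activity, the cytosol and the synthesis of spermine and spermidine, whereas Zm00001d020544 has 0 terms and carries its description alone. Their genome build was not stated in the labels.

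Library totals ran from 57792439 to 71957443 estimated counts. Tests used edgeR's quasi-likelihood fit over the 21902 genes with a mean of at least 1 FPKM (fragments scaled to transcript length and library size), with Benjamini-Hochberg adjustment and a threshold of 0.05 on the adjusted p. In that fit 0.0137% of the genes tested were called in either direction. The groups did not overlap in 26.7% of the genes tested, 13.0% with NPI higher and 13.7% with NPI lower. NPI-2 stood apart over all genes: its log2(FPKM + 1) values correlated with NPI-1 and NPI-3 at 0.838 and 0.814, and with the DI libraries at 0.854 to 0.882. Nothing in the labels says that the libraries came from separate plants, and the p-values cover no more than library-to-library spread, which may be technical.

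Transcripts of both genes were several times more abundant in NPI root tips. Zm00001d020544 had 56.65, 62.04 and 47.72 FPKM in NPI-1, NPI-2 and NPI-3, against 2.70, 4.21 and 4.86 FPKM in DI-1, DI-2 and DI-3. All 3 NPI libraries were above all 3 DI libraries, and the lowest NPI value was 9.82 times the highest DI value. The means were 55.5 ± 7.23 FPKM in NPI and 3.92 ± 1.11 FPKM in DI (SD, n = 3 each), a ratio of 14.1. The fitted log2 difference, NPI minus DI, was 3.88 (SE 0.303). Over all genes tested, 119 had a larger log2 difference, or 0.543%.

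Zm00001d020543 had 18.55, 30.54 and 22.53 FPKM in NPI-1, NPI-2 and NPI-3, against 1.75, 3.11 and 2.44 FPKM in DI-1, DI-2 and DI-3. Here too the groups did not overlap, and the lowest NPI value was 5.96 times the highest DI value. Its means were 23.9 ± 6.11 FPKM in NPI and 2.43 ± 0.68 FPKM in DI (SD, n = 3 each), a ratio of 9.81. The log2 difference was 3.35 (SE 0.33), and 199 genes, or 0.909% of those tested, had a larger one.

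**Figure D1:**
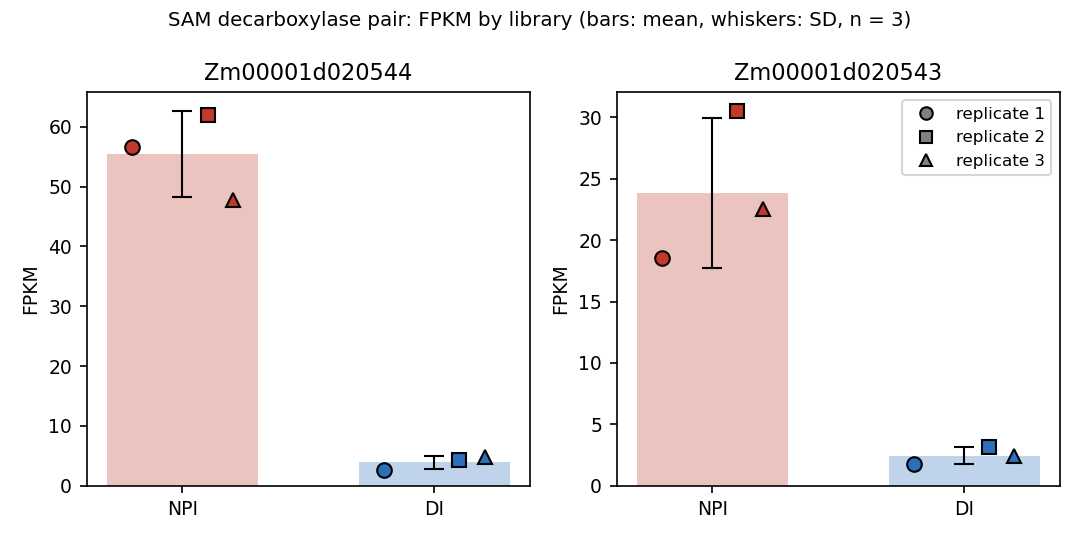
FPKM of the 2 SAM decarboxylase genes by library, NPI left of DI in each panel; bars are means, whiskers SD (n = 3), and marker shapes give the replicate number. NPI libraries lie between 47.72 and 62.04 FPKM for Zm00001d020544 and between 18.55 and 30.54 FPKM for Zm00001d020543, above the DI libraries in both panels.

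The reads behind these levels were many in NPI and fewer in DI. Zm00001d020544 had 7716, 9178 and 6866 estimated counts in the NPI libraries and 342, 586 and 772 in the DI libraries. For Zm00001d020543 the numbers were 1493, 2669 and 1915 in NPI and 131, 256 and 229 in DI. Even the smallest of these, 131 counts in DI-1, has an exact 95% Poisson interval of 109.5 to 155, which covers counting error only. Counting error was smaller than the distance between the groups in every library, but the genes were chosen on that distance, so this only describes them.

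Within a library, the pair lay in the upper part of the genes tested in NPI and below the middle in DI. Zm00001d020544 exceeded 91.7%, 93.2% and 89.5% of the genes tested in NPI-1, NPI-2 and NPI-3, against 25.1%, 34.8% and 40.8% in DI-1, DI-2 and DI-3. Zm00001d020543 exceeded 75.0%, 85.4% and 79.2% in the NPI libraries, against 15.6%, 26.7% and 22.7% in the DI libraries. These places are by FPKM, a scale per transcript length. Both members passed the filter of 1 FPKM on the mean and stood above it in every library.

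For the pair, NPI-2 lay close to the other NPI libraries. Relative to the DI mean on a log2 CPM scale (counts scaled to library size and TMM factors), Zm00001d020544 was higher by 3.97, 3.92 and 3.86 in NPI-1, NPI-2 and NPI-3. Its SD over libraries on that scale was 0.055 in NPI and 0.44 in DI. Scaled to library size alone, an alternative chosen after seeing the data, it was higher by 3.94, 4.05 and 3.67, with an SD of 0.20 in NPI and 0.45 in DI, so the order of the NPI libraries and their tightness depend on the TMM factors. With those factors Zm00001d020543 was higher by 3.04, 3.58 and 3.46, with an SD of 0.28 in NPI and 0.38 in DI. Left out of the fit, NPI-2 changed little: the log2 differences were then 3.87 for Zm00001d020544 and 3.24 for Zm00001d020543.

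The proportion of the members to each other varied among libraries. Zm00001d020544 had the higher FPKM in every library, at 3.05, 2.03 and 2.12 times Zm00001d020543 in NPI-1, NPI-2 and NPI-3 and 1.54, 1.35 and 1.99 times in DI-1, DI-2 and DI-3. On the log2 scale the ratio averaged 1.24 ± 0.324 in NPI and 0.69 ± 0.283 in DI (± SD over 3 libraries each). NPI-1 lay highest, and the NPI mean without it was 1.05. The ratio of counts was larger, at 4.06 ± 0.959 in NPI and 2.76 ± 0.556 in DI, because the authors' FPKM treats the transcript of Zm00001d020544 as 1.69 times as long. How far reads of the pair could be assigned to the wrong member was not tested, since no sequences were used here and the handling of shared reads is not given in the sources.

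By name or description the table holds 3 other SAM decarboxylase genes, and by mean FPKM the pair were the least abundant of these 5 in both groups. A further 2 genes, described as another enzyme, carry the ontology term for SAM decarboxylase activity. They reached at most 1.3 FPKM in any library and are not counted in the family here. Zm00001d003157 (S-adenosyl methionine decarboxylase2, chromosome 2, 33981493 to 33984783) was the most abundant, with 943.16, 1873.55 and 1086.02 FPKM in NPI-1 to NPI-3 and 922.61, 875.93 and 952.47 FPKM in DI-1 to DI-3. Its groups overlapped, and NPI-2 alone was far above the rest (log2 difference 0.54, SE 0.407, edgeR adjusted p = 0.483). Zm00001d025773 (S-adenosylmethionine decarboxylase1, chromosome 10, 129108410 to 129115766) had 135.23, 136.64 and 140.60 FPKM in NPI and 41.45, 54.68 and 59.64 FPKM in DI. The groups did not overlap, the 3 NPI values lay close together, and the log2 difference was 1.48 (SE 0.276, higher in 3 of 3 NPI libraries), but the gene did not pass in edgeR (adjusted p = 0.0773). The range of its adjusted p over all alternatives was 6.75e-06 to 0.32, and 3 of 15 passed: DESeq2, limma-voom with library weights, and edgeR without NPI-2, at 0.0272. Zm00001d051056 (chromosome 4, 139235984 to 139238663) had 61.68, 83.29 and 78.88 FPKM in NPI and 48.34, 39.00 and 54.61 FPKM in DI. Those groups did not overlap either, with a log2 difference of 0.72 (SE 0.272, higher in 3 of 3 NPI libraries) and no call in edgeR (adjusted p = 0.204).

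**Figure D2:**
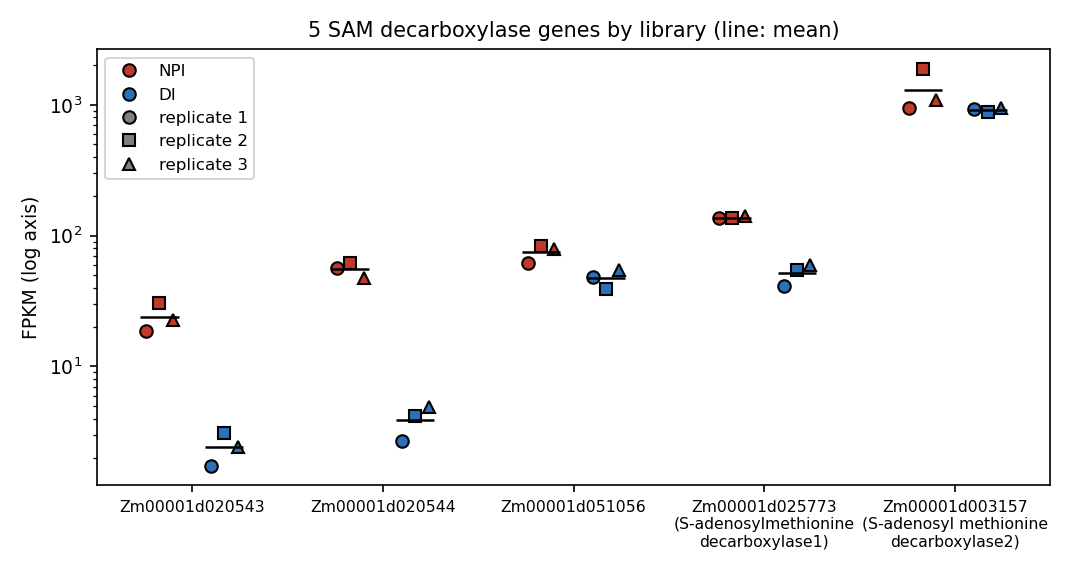
FPKM on a log axis of the 5 SAM decarboxylase genes in each library, ordered by their DI mean, NPI left of DI for each gene; horizontal lines are means and marker shapes give the replicate number. The gap between groups is widest for the pair at the left, while Zm00001d003157 at the right overlaps between groups.

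The order of levels along the family had close neighbours. In NPI the means ran from 1301 FPKM for Zm00001d003157 through 137 for Zm00001d025773, 74.6 for Zm00001d051056 and 55.5 for Zm00001d020544 to 23.9 for Zm00001d020543. Zm00001d020544, at up to 62.04 FPKM, just reached the range of Zm00001d051056, whose lowest NPI library had 61.68. In DI, Zm00001d020544 and Zm00001d020543 overlapped, at 2.70 to 4.86 and 1.75 to 3.11 FPKM, and lay well below the 39.00 FPKM of the lowest Zm00001d051056 library.

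Even in NPI the pair supplied a small part of the family's transcripts. Its summed FPKM was 75.20, 92.58 and 70.25 in NPI-1, NPI-2 and NPI-3, against 4.45, 7.32 and 7.30 in DI-1, DI-2 and DI-3. That was 5.18% ± 0.978 of the summed FPKM of the 5 genes in NPI and 0.622% ± 0.164 in DI (± SD over 3 libraries each). Of the difference in family means, 570 FPKM, the pair accounted for 12.8%, Zm00001d025773 for 15.0% and Zm00001d003157 for 67.4%. Without NPI-2, an alternative chosen after seeing the data, the difference was 273 FPKM, of which the pair accounted for 24.3%, Zm00001d025773 for 31.5% and Zm00001d003157 for 35.8%. The summed FPKM of the 3 other genes, which does not rest on the pair, was 1513 ± 509 in NPI and 1016 ± 48.7 in DI (± SD over 3 libraries each). It was higher in 3 of 3 NPI libraries, with an exact two-sided permutation p of 0.1, the smallest that 3 libraries against 3 can give. The difference was 497 FPKM with all libraries and 207 FPKM without NPI-2.

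Elsewhere in the polyamine pathway, the spermidine and spermine synthase genes tested and the 2 amine oxidase genes matched by name had positive differences that did not pass the test in edgeR. Some of the synthase differences were small. Genes that make putrescine showed no common direction. Lists made from names and descriptions held 93 genes beside the pair, of which 54 had the mean of 1 FPKM needed for a test. In edgeR 0 of the 54 passed, against 0.0137% of all genes tested. At an unadjusted p under 0.05 there were 10 higher and 4 lower, where all genes tested gave 12.3% higher and 8.52% lower. DESeq2 called 6 higher and 2 lower, against 6.84% and 4.53% of all genes. Limma-voom with library weights called 4 higher and 0 lower, against 4.46% and 2.71%, and limma on log2(FPKM + 1) called 0, against 0.630%. Without NPI-2, edgeR called 3 higher and 3 lower, against 6.65% and 5.19%. Groups did not overlap for 10 higher genes, or 18.5%, and 7 lower genes, or 13.0%, against 13.0% and 13.7% of all genes tested. Differences were positive for 34 of the 54, against 54.0% of all genes tested, and their median was 0.22, against 0.07.

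Enzymes that add aminopropyl groups use the product of SAM decarboxylase. Of 6 spermidine and spermine synthase genes 5 could be tested, and all 5 had positive log2 differences, with a median of 0.70. Over all genes tested 54.0% were positive, with a median of 0.07. The differences of Zm00001d005159 (0.041, SE 0.403) and Zm00001d015026 (0.19, SE 0.232) were smaller than their SE, with overlapping groups. The spermidine synthase gene Zm00001d046112 had 31.98, 23.11 and 16.03 FPKM in NPI and 12.72, 10.75 and 8.49 FPKM in DI. Every NPI library was above every DI library (log2 difference 1.21, SE 0.308, edgeR adjusted p = 0.116). Its adjusted p with all libraries was 0.0135 in DESeq2 and 0.0389 in limma-voom with library weights. For the spermine synthase gene Zm00001d053404, singled out after its values were seen, the means were 6.12 ± 2.08 FPKM in NPI and 2.91 ± 0.315 FPKM in DI, again without overlap (SD, n = 3 each; log2 difference 1.15, edgeR adjusted p = 0.134, and 0.0302 without NPI-2). For that gene the adjusted p with all libraries was 0.0277 in DESeq2 and 0.0339 in limma-voom with library weights. Zm00001d019467, a spermidine synthase 2 gene and the most abundant of the list, overlapped between groups, with 32.65 ± 9.52 FPKM in NPI and 20.9 ± 4.62 FPKM in DI (SD, n = 3 each; 0.23 as the edgeR adjusted p).

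Putrescine synthesis had the median closest to 0 among the polyamine lists. Of its 8 genes 4 were tested, with 2 positive and 2 negative differences between -0.11 and 0.26 and a median of 0.029. Arginine decarboxylase, which commits arginine to putrescine, was represented mainly by Zm00001d045470. It had 79.68, 55.96 and 167.67 FPKM in NPI and 110.42, 117.56 and 121.09 FPKM in DI. The NPI libraries lay on both sides of the DI libraries (log2 difference -0.078, SE 0.477, edgeR adjusted p = 0.943). N-carbamoylputrescine amidase (Zm00001d016704), the last step of the arginine route, had 40.6 ± 5.17 FPKM in NPI and 35.6 ± 1.41 FPKM in DI, and arginase (Zm00001d024908), which splits arginine into ornithine and urea, 3.10 ± 0.824 FPKM in NPI and 3.49 ± 0.635 FPKM in DI (SD, n = 3 each). Their edgeR adjusted p was 0.553 and 0.856.

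Amine oxidases break polyamines down and release hydrogen peroxide. Both genes of this list had positive differences. The copper amine oxidase gene Zm00001d003309 had 48.17, 51.02 and 35.43 FPKM in NPI and 20.60, 24.08 and 20.30 FPKM in DI. NPI libraries were all above DI libraries (log2 difference 1.10, SE 0.235, edgeR adjusted p = 0.0917, and 0.0341 without NPI-2). Its adjusted p with all libraries was 7.57e-05 in DESeq2 and 0.0324 in limma-voom with library weights. Polyamine oxidase1 (Zm00001d024281) had 34.61, 40.62 and 138.28 FPKM in NPI and 37.43, 15.26 and 11.92 FPKM in DI, so that DI-1 lay among the NPI values and NPI-3 far above (log2 difference 1.86, SE 0.723, edgeR adjusted p = 0.212). The name patterns missed genes to which the table gives ontology terms for polyamine breakdown, some of them described as other enzymes. A search for those terms, made after values had been seen and given with no test, found 17 more genes, 8 of them with a mean of at least 1 FPKM. Of the 8, 5 had a higher and 3 a lower mean in NPI. Groups did not overlap for 3 of the 8, all higher in NPI, beside 13.0% of all genes tested. These were Zm00001d002266, described as lysine-specific histone demethylase 1 (43.2 ± 19.0 FPKM in NPI, 21.4 ± 6.79 in DI), Zm00001d026334 (30.9 ± 8.14 in NPI, 12.3 ± 6.27 in DI) and Zm00001d036513 (39.4 ± 16.9 in NPI, 16.2 ± 6.47 in DI; SD, n = 3 each).

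**Figure D3:**
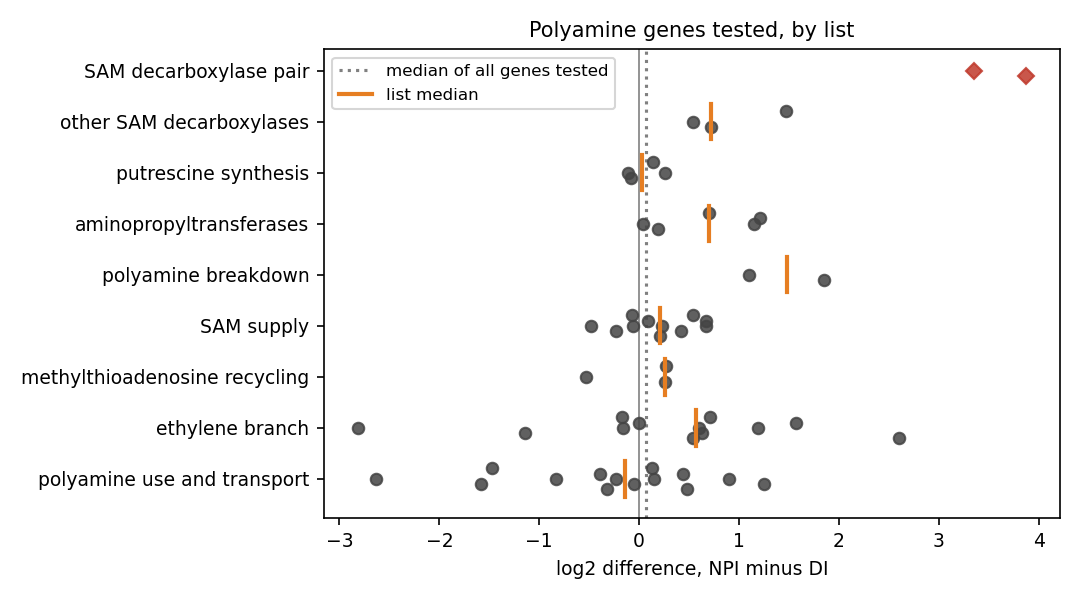
Log2 difference, NPI minus DI, of each polyamine gene tested, by list, with the SAM decarboxylase pair at the top; orange lines are list medians and the dotted line is the median of all genes tested, 0.07. The pair lies at 3.35 and 3.88, to the right of the other genes, which span -2.82 to 2.60.

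Genes that supply SAM differed widely in level, from a mean of 5.78 to 771 FPKM among those tested, and several varied between NPI libraries. Of 14 such genes 11 were tested, 7 with positive and 4 with negative differences and a median of 0.21. Zm00001d010920, a SAM synthase gene and the most abundant of the list, had 254.98, 1216.21 and 1129.37 FPKM in NPI and 872.82, 640.98 and 512.31 FPKM in DI. NPI-1 was the lowest library and NPI-2 and NPI-3 the highest (log2 difference 0.42, SE 0.606, edgeR adjusted p = 0.723). Zm00001d013644, a homocysteine methyltransferase gene, and Zm00001d041455, homocysteine S-methyltransferase 3, had the smallest p in each direction. Their log2 differences were 0.67 (edgeR adjusted p = 0.36) and -0.48 (0.429). Without NPI-2, Zm00001d041455 passed as lower, with a log2 difference of -0.88 and an edgeR adjusted p of 0.0483.

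Methylthioadenosine, left when an aminopropyl group is transferred, is recycled to methionine. Of 4 genes matched for that cycle 3 were tested. The methylthioribose kinase gene Zm00001d026573 had 82.2 ± 18.2 FPKM in NPI and 72.0 ± 9.28 FPKM in DI, and the dehydratase/enolase-phosphatase gene Zm00001d049191 had 33.5 ± 10.1 FPKM in NPI and 50.8 ± 8.57 FPKM in DI (SD, n = 3 each). Groups overlapped for the kinase gene, while every NPI library was below every DI library for the phosphatase gene. Neither passed, with edgeR adjusted p of 0.612 for the kinase gene and 0.392 for the phosphatase gene.

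The ethylene branch draws on the same SAM through ACC synthase and ACC oxidase. Its 12 tested genes of 22 matched had 7 positive and 5 negative differences. ACC oxidase35 (Zm00001d018211) had 62.21, 79.63 and 201.01 FPKM in NPI and 8.11, 10.26 and 42.33 FPKM in DI, without overlap (log2 difference 2.60, SE 0.812, edgeR adjusted p = 0.154). It passed as higher in DESeq2 (adjusted p = 0.00698) but not in limma-voom with library weights (0.0726). Zm00001d024853, named ACC oxidase15, had 1.09 ± 0.464 FPKM in NPI and 8.26 ± 7.64 FPKM in DI, with DI-3 below the NPI libraries (SD, n = 3 each; 0.212 as the edgeR adjusted p). That gene passed as lower in DESeq2 (adjusted p = 0.0398) but not in limma-voom with library weights (0.561). Another gene named ACC oxidase15, Zm00001d024843, was singled out after its values were seen. It had 4.97 ± 2.99 FPKM in NPI and 12.0 ± 2.23 FPKM in DI (SD, n = 3 each). All its NPI libraries were below its DI libraries (log2 difference -1.14, edgeR adjusted p = 0.298). The most abundant of the list, Zm00001d011208, had 683 ± 365 FPKM in NPI and 828 ± 46.9 FPKM in DI (SD, n = 3 each; 0.896 as the edgeR adjusted p).

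Among genes that use or move polyamines, 6 of 14 tested genes had positive and 8 negative differences, with a median of -0.14. Groups did not overlap for 2 higher genes, or 14.3%, and 5 lower genes, or 35.7%, against 13.0% and 13.7% of all genes tested. Deoxyhypusine synthase and hydroxylase, hydroxycinnamoyl transferases that conjugate spermidine, and transporters made up the list. The transporter gene Zm00001d024516 (RMV1) had 5.13 ± 2.63 FPKM in NPI and 2.17 ± 0.107 FPKM in DI, without overlap (SD, n = 3 each; adjusted p = 0.146 in edgeR). It passed as higher in DESeq2 (adjusted p = 0.0305) but not in limma-voom with library weights (0.0622). The spermidine hydroxycinnamoyl transferase gene Zm00001d022592 was lower in value, at 0.487 ± 0.339 FPKM in NPI and 3.24 ± 1.65 FPKM in DI, also without overlap (SD, n = 3 each; 0.141 as the edgeR adjusted p). That gene passed as lower in DESeq2 (adjusted p = 0.0107) but not in limma-voom with library weights (0.119). Zm00001d039947, described as the same enzyme, had 1.60, 46.35 and 0.93 FPKM in NPI and 68.35, 35.88 and 23.00 FPKM in DI. NPI-2 lay among the DI libraries there, and the log2 difference was -1.47 with it (edgeR adjusted p = 0.549) and -4.93 without it (edgeR adjusted p = 0.0235). Zm00001d003422, an amino acid and polyamine transporter gene singled out after its values were seen, also passed as lower in edgeR without NPI-2 (log2 difference -2.36, adjusted p = 0.0351), and had -1.58 with all libraries (0.207). Its NPI libraries were all below its DI libraries.

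Genes were ranked by how closely their log2(FPKM + 1) followed each member over the 6 libraries, by Pearson's r. The 6 points are the same libraries throughout and fall into their 2 groups, and they share library and depth, so r is a description only. For Zm00001d020544 the closest were Zm00001d010795 (IQ-domain 25, r = 0.997), Zm00001d003663 (co-chaperone GrpE family, 0.996), Zm00001d002143 (transcription factor TGA4, 0.994), Zm00001d028398 (glycosyl hydrolase family 10, 0.993) and Zm00001d022630 (knotted1 induced1, 0.992). For Zm00001d020543 they were Zm00001d029663 (pollen ankyrin-like protein, 0.998), Zm00001d022630 again (0.997), Zm00001d042867 (bowman-birk inhibitor1, 0.995), Zm00001d047992 (AP-3 complex subunit sigma, 0.993) and Zm00001d032396 (SAM-dependent methyltransferase, 0.991). Some of these genes were near the floor in DI, below the 1 that was added. Their highest DI values were 0.99 FPKM for Zm00001d010795, 0.69 for Zm00001d002143, 0.34 for Zm00001d022630 and 0.88 for Zm00001d042867. The members matched each other at r = 0.989, place 11 in the ranking for Zm00001d020544 and place 7 in that for Zm00001d020543.

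Zm00001d025773, the SAM decarboxylase1 gene, ranked 7 for Zm00001d020544 (r = 0.991) and 32 for Zm00001d020543 (r = 0.98). The other 2 family members ranked far lower, at r = 0.858 and 0.865 for Zm00001d051056 and r = 0.613 and 0.679 for Zm00001d003157. A close match in shape did not mean a like size of difference. Zm00001d003663, among the closest to Zm00001d020544, had 22.8 ± 0.368 FPKM in NPI and 17.95 ± 0.642 FPKM in DI (SD, n = 3 each), a log2 difference of 0.41. Zm00001d022630, which ranked high for both members, had 2.16, 3.10 and 2.34 FPKM in NPI and 0.06, 0.30 and 0.34 FPKM in DI.

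Around the pair on chromosome 7, the tested genes on the left had log2 differences of at most 0.40, and 3 genes farther to the right had larger positive ones that did not pass in edgeR with all libraries. The 10 genes on each side were taken by position, reaching 368 kb to the left and 468 kb to the right. Of these 20 genes 10 had the mean of 1 FPKM needed, and 0 passed in edgeR, against 0.0137% of all genes tested. At an unadjusted p under 0.05 there were 2 higher and 0 lower, beside 12.3% and 8.52% of all genes tested, and groups did not overlap for 2 higher and 0 lower, beside 13.0% and 13.7%. DESeq2 called 2, against 11.4% of all genes, limma-voom with library weights 2, against 7.16%, edgeR without NPI-2 2, against 11.8%, and limma on log2(FPKM + 1) 0. The nearest on the left, Zm00001d020542, and the nearest on the right, the transfer RNA genes Zm00001d020547 and Zm00001d020548, were listed at 0 in all 6 libraries. The nearest tested gene was Zm00001d020541, a queuine tRNA-ribosyltransferase gene that ends 33.3 kb to the left. It had 3.71, 6.06 and 2.08 FPKM in NPI and 3.22, 4.43 and 3.75 FPKM in DI, with overlapping groups (log2 difference 0.075, SE 0.338, edgeR adjusted p = 0.921).

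**Figure D4:**
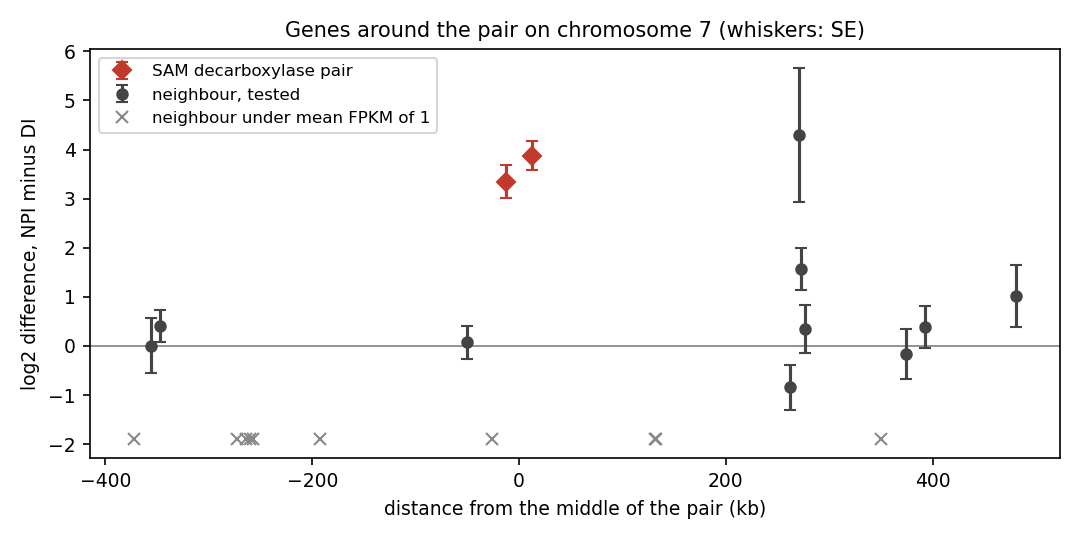
Log2 difference, NPI minus DI, against the distance in kb from the middle of the pair for the 10 genes on each side; whiskers are SE, diamonds the pair, circles tested neighbours, and crosses mark positions of genes under the mean of 1 FPKM, which have no value. The tested genes on the left lie at 0.40 or below, and a gene 257 kb beyond the right edge of the pair has a difference of 4.30 (SE 1.36).

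Of the genes farther to the right, 2 that have no description and were singled out after their values were seen, did not overlap between groups. Zm00001d020550, 257 kb away, had 41.11, 24.02 and 11.20 FPKM in NPI and 0, 1.11 and 2.82 FPKM in DI (log2 difference 4.30, SE 1.36, edgeR adjusted p = 0.157). Zm00001d020551, 259 kb away, had 7.79, 7.71 and 7.63 FPKM in NPI and 3.40, 2.28 and 2.44 FPKM in DI (log2 difference 1.57, SE 0.42, edgeR adjusted p = 0.125). With all libraries both passed in DESeq2, with adjusted p of 0.0047 for Zm00001d020550 and 0.00485 for Zm00001d020551. In limma-voom with library weights the adjusted p was 0.0514 for Zm00001d020550 and 0.0459 for Zm00001d020551. The gene next to them, Zm00001d020549, a HAD-superfamily hydrolase gene, had 4.24 ± 3.36 FPKM in NPI and 7.60 ± 0.562 FPKM in DI (SD, n = 3 each), and its log2 difference was -0.84 (edgeR adjusted p = 0.33). Without NPI-2 it was -1.57 and passed in edgeR (adjusted p = 0.0257). In limma-voom with library weights and all libraries it was -1.39 and passed (adjusted p = 0.0424). Zm00001d020556, a WAT1-related gene, had 29.70, 5.62 and 31.16 FPKM in NPI and 13.94, 11.45 and 10.45 FPKM in DI. NPI-2 lay below all other libraries there, and the log2 difference was 1.02 with it (edgeR adjusted p = 0.39) and 1.496 without it (edgeR adjusted p = 0.0271). Both genes were also singled out after their values were seen.

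Some lists of cell type markers differed in summed FPKM among the NPI libraries. Summed FPKM of the 75 xylem and secondary wall genes, of which 23 were at 0 in all libraries, was 789, 371 and 976 in NPI-1, NPI-2 and NPI-3 and 424 to 541 in DI. Among the 39 of them tested, 32 log2 differences were positive, and the median was 0.62. Summed FPKM was 127 to 296 in NPI and 202 to 306 in DI for 54 genes of the root tip list, which includes scarecrow-like factors and had 13 genes at 0. Of its 20 tested genes, 14 log2 differences were positive with a median of 0.74, while the sums overlapped between groups. For comparison with both lists, 54.0% of all genes tested were positive, with a median of 0.07. The sum was 91.6 to 139 in NPI and 125 to 143 in DI for 24 genes matched as A- and B-type cyclins of dividing cells. For 18 root hair genes it was 96.7 to 147 in NPI and 133 to 152 in DI, and for 32 leaf genes 95.2 to 114 in NPI and 78.1 to 130 in DI. Differences were positive for 4 of 13 tested cyclin genes (median -0.13) and 4 of 11 tested root hair genes (median -0.12). They were positive for 9 of 19 tested leaf genes (median -0.039). The part of these markers in the pair's difference was not tested. In such bulk samples, fewer cells of a type and less RNA per cell cannot be told apart.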

How the data were processed

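Per the labels' protocols, poly(A) RNA of maize root tips was read from both fragment ends by Illumina sequencing. The submitters' processing notes name HISAT2 2.0, StringTie 1.3.4, edgeR and FastQC 0.10.1. The genome build, strand handling and treatment of reads shared by similar genes are not given in the sources used here. The authors deposited 1 table with estimated counts, which are whole numbers, and FPKM per library. The file headers name the FPKM and count columns, and how the authors computed FPKM is not stated further. The RefSeq table given beside the data shared 0 identifiers with it and was not used.

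Estimated counts were tested with edgeR 4.0.16 (R 4.3.3; TMM factors, quasi-likelihood F test, NPI minus DI, two-sided, Benjamini-Hochberg adjustment over 21902 genes with a mean of at least 1 FPKM). Each SE was computed as the size of the log2 difference over the square root of its F. The test was checked on counts simulated independently for each library. No simulated library stood apart over all genes as NPI-2 did, so the check does not cover that feature of the data. FPKM gave the levels, shares and likeness, and log2 CPM used a prior count of 1. The summed FPKM of the other SAM decarboxylase genes was compared by an exact permutation test, two-sided, whose smallest p at this size is 0.1.

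Groups and replicate numbers follow the sample titles. One DI library has another repeat number in its description. The members and lists were chosen with earlier results of these data known. Lists were matched by text in the name and description of each gene, which missed 2 tested genes of methylthioadenosine recycling as well as genes marked only by ontology terms. The genes named were the members, the other SAM decarboxylase genes, per list the genes called or else those of smallest p in each direction and of highest mean FPKM, the 2 nearest neighbours on each side and the 5 genes most like each member. Others are said to have been singled out later.

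Equal replicate numbers were not treated as pairs in the main fit. A check of such pairing gave mixed signs, cannot decide with 3 libraries per group, and is given with the alternatives. These were DESeq2 1.42.0, limma 3.58.1 on log2(FPKM + 1) and log2(FPKM + 0.1), limma-voom with library weights, other filters and scaling factors, a block for replicate number, and leaving out 1 library at a time. Figures were drawn with matplotlib 3.10.9.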

Additional observations from a re-analysis of the deposited data

How the results depend on the processing

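The log2 differences of the pair kept their direction under all 15 alternatives, from 3.54 to 4.08 for Zm00001d020544 and from 2.85 to 3.54 for Zm00001d020543. Only limma on log2(FPKM + 1) moved them by more than the SD between libraries pooled over both groups, to 3.54 and 2.85; for Zm00001d020544 that move was within the SD of the DI libraries. With each library left out they ranged from 3.66 to 4.08 and from 3.16 to 3.54. The difference in the pair's share of the family was 4.55 percentage points by FPKM, 3.43 by CPM, and 4.05 to 5.02 with each library left out.

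The number of genes called over the whole table depended on the method: 3 in edgeR, 18 without the filter, 15 with a mean of at least 5 FPKM, 16 with upper quartile factors, 2491 in DESeq2, 138 and 129 in limma with 1 and 0.1 added, 1569 in limma-voom with library weights, and 0 to 2593 with each library left out, the last without NPI-2. Polyamine genes called, 0 in edgeR, numbered 8 in DESeq2, 4 in limma-voom, and 0 to 6 with each library left out. Neighbours called, also 0 in edgeR, numbered 2 in DESeq2, 2 in limma-voom, and 0 to 2 with each library left out. The 6 and the 2 with a library left out came without NPI-2, and every other library left out gave 0. The cause was not tested.

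Libraries with the same replicate number deviated from their group means with correlations of -0.236, 0.169 and 0.162, and NPI-1 and NPI-2 correlated better with a library of another number. A replicate block gave 1 gene called over the whole table, 0 polyamine genes and 0 neighbours, and log2 differences of 3.92 for Zm00001d020544 and 3.37 for Zm00001d020543. For the summed FPKM of the other SAM decarboxylase genes, an exact sign-flip test over the 3 pairs gave p = 0.25, the smallest it can give. That difference, 497 FPKM, ranged from 207 to 683 FPKM with each library left out.

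Signs turned only for genes with small differences that no setting called: Zm00001d024908 (0.056 in limma-voom, -0.35 to 0.068 with each library left out), Zm00001d045470 (-0.77 to 0.26), Zm00001d011208 (-0.56 to 0.26), Zm00001d010920 (-0.39 in limma-voom) and Zm00001d020541 (-0.029, -0.060 and -0.089 in limma with 1 added, with 0.1 added and in limma-voom, -0.26 to 0.35 with each library left out). The sum for the other SAM decarboxylase genes and the shares of the family difference depend on NPI-2.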
